A study of Mus musculus with 32 samples.

Results

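The 8 genes followed here, 6 of them known markers of the secretory cells of the airway, were read across the lungs of 32 mice: Scgb1a1, Scgb3a1, Scgb3a2, Cyp2f2, Fabp1, Clca1, Muc5b and Agr2. They were taken by gene name from the arrays, and are 8 of the 33253 genes named there, with 1 probe each. Fabp1 and Clca1 were chosen by their strong fall in 85% O2 at P14, so that their oxygen effect at P14, and every contrast that uses the same P14 groups against oxygen or age, is given as a description with no test. The other 6 were taken as those markers.

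Airway secretory cells line the conducting airways beside ciliated cells. Club cells release secretoglobins, small proteins of the airway lining fluid, and carry cytochrome P450 enzymes that metabolise inhaled compounds. Mucous (goblet) cells make gel-forming mucins, and in mice they largely arise from club cells, with the mucin Muc5b also made by secretory cells of the healthy airway. These cells restore the airway lining after injury, and type 2 immune signals are known to drive them towards mucous genes.

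RNA was measured in whole lungs of newborn C57Bl/6J mice of both sexes, which were kept in 21% O2 or, from P1 on, in 85% O2, a model of bronchopulmonary dysplasia in which the air sacs fail to divide. Every mouse received an antimiR, a locked nucleic acid oligonucleotide given by injection into the abdomen: either antimiR-34a, which neutralises miR-34a-5p, or a scrambled antimiR. Lungs were taken at postnatal day (P)5 or P14 (slightly later by the labels), with a different killing agent at each age by the labels and the same one by the study's methods. This gave 8 groups of 4 mice, and no group went without an oligonucleotide. Nursing dams were rotated between the oxygen levels. Whole lung mixes all cell types, so that fewer airway cells and less RNA per cell cannot be told apart.

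Each of the 4 array slides held 1 age at 1 oxygen level, so that the effects of oxygen and of age cannot be told apart from a slide difference. The 2 antimiRs were compared within a slide, in different rows of it. Between 33606 and 40774 of 55681 mouse probes were well above background on an array (median 36411.5), and no spot was saturated. Levels below are log2 processed signals after each array's own 75th percentile was subtracted. They compare mice, not genes, since probes differ in brightness. Marker lists of other cell types set some mice apart. In P5 mice in 21% O2 with scrambled antimiR, mice 1 and 4 had ciliated cell list levels of 0.58 and 0.53, against -0.15 and -0.26 in mice 2 and 3, where a list level is the mean log2 deviation of its genes from the mean of all 32 mice. Mouse 4 of that group also had a skeletal muscle level of 5.66, a basal cell level of 2.87 and an oesophagus level of 2.30. Mouse 3 of P5 in 85% O2 with antimiR-34a had a liver level of 4.51, and mouse 4 of that group 0.93. Mouse 4 of P14 in 85% O2 with antimiR-34a had the highest ciliated level of all, 0.82. The main results that rest on these mice are given with and without them. All 10 type II pneumocyte markers, which should be present in lung, were well above background on every array.

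The probes lie at mm9 chr19:9158197-9158256 on the minus strand for Scgb1a1, chr11:49478489-49478548 on the plus strand for Scgb3a1, chr7:27918570-27918629 on the plus strand for Cyp2f2, chr6:71154906-71154965 on the plus strand for Fabp1, chr3:144667558-144667617 on the minus strand for Clca1, chr7:149058931-149058990 on the plus strand for Muc5b, and chr12:36730506-36730565 on the plus strand for Agr2. Scgb1a1 and Scgb3a1 were each printed as 10 spots, and the other 6 as 1 spot. Since mice of 4 groups received an oligonucleotide against miR-34a-5p, its mature sequence (RefSeq, GRCm38.p6 chr4:150068473-150068494, plus strand) is shown with the seed in capitals, above the only stretch of a member's probe that holds the complement of that seed, also in capitals.
miR-34a-5p: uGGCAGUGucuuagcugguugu
Scgb1a1 probe: taaagccttgtCACTGCCctgtgtct
The letters CACTGCC begin at base 46 of the 60 bases of the Scgb1a1 probe, and were in none of the other 7 probes. They were in 250 of all 55681 mouse probes, or 0.449%. A match is a description of letters and not a binding site.

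Promoter sequence (RefSeq, GRCm38.p6, plus strand, the 250 bases before the gene's start) was at hand for 4 of the 8 members, and is shown because the test for oxygen called some of these members and not others. With scrambled antimiR, Scgb3a1 (chr11:49663345-49663594), Agr2 (chr12:35992675-35992924) and Fabp1 (chr6:71199629-71199878) were lower in 85% O2 at both ages, Fabp1 with the limits given below. With antimiR-34a at P5 none of them passed the test. Cyp2f2 (chr7:27119705-27119954) did not pass it at either age or with either antimiR. Capitals mark the motif matches.
Scgb3a1: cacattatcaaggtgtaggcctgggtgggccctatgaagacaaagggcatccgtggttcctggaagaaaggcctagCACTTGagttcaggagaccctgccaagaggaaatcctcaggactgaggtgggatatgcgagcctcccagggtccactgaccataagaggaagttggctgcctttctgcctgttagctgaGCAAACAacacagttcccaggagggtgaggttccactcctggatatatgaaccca
Agr2: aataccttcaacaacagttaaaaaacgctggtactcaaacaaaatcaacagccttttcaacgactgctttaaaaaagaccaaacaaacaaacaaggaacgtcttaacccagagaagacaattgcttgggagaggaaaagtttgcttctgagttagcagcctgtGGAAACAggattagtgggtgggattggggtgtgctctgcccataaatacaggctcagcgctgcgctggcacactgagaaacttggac
Fabp1: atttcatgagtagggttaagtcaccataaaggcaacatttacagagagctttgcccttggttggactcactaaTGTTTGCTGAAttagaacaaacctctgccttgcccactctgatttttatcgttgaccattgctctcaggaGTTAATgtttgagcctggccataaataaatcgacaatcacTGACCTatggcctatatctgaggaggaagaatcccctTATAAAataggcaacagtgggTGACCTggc
Cyp2f2: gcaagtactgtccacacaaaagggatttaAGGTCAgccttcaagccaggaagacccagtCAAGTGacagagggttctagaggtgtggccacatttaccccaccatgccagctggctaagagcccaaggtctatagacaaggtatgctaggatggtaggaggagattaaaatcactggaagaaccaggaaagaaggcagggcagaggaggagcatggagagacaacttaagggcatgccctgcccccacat
Both strands were searched. The FOX letters TGTTTNC were found in Scgb3a1, Agr2 and Fabp1 and in 17.8% of 32851 promoters, and the NKX2-1 letters CAAGTG in Scgb3a1 and Cyp2f2 and in 11.6%. The Fabp1 promoter alone of these 4 held the TATA box TATAAA (12.4% of promoters), the HNF1 letters GTTAAT (6.43%) and the C/EBP letters TTGCNNAA (9.56%), the last overlapping its FOX match. The half-site AGGTCA of HNF4 and PPAR receptors, lipid-sensing and liver factors, was in Fabp1 at 2 places and in Cyp2f2 (14% of promoters). The XBP1 letters ACGTGG, present in 6.91%, were in none of the 4.

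**Figure D1:**
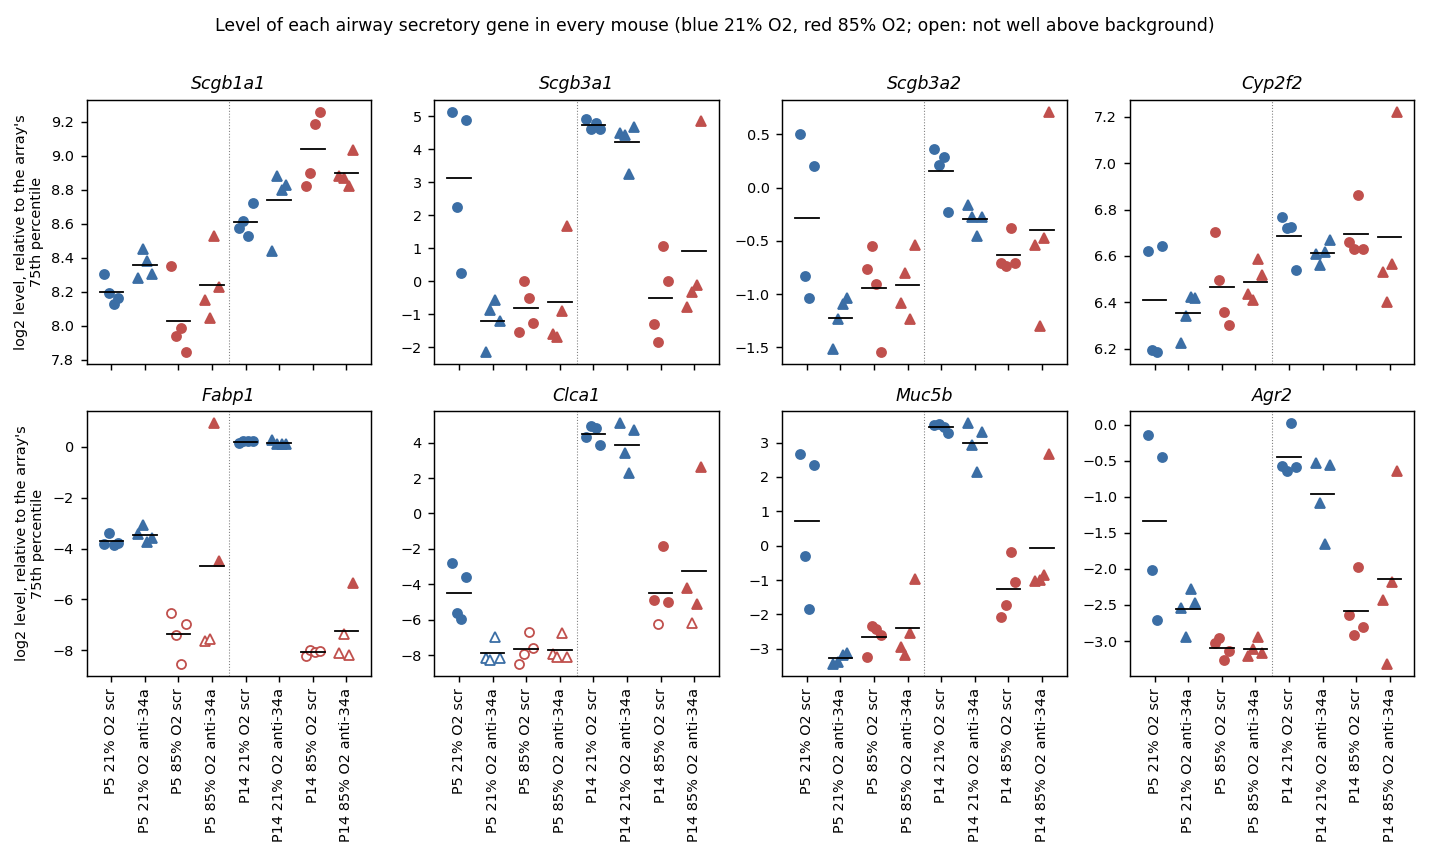
Level of each gene in every mouse (log2 processed signal minus the array's 75th percentile, vertical axis, scaled separately for each gene) in the 8 groups of 4 mice, with bars at group means. Open points are arrays on which the probe was not well above background. Scgb1a1 and Cyp2f2 span little, while the P14 mice in 21% O2 sit highest for Scgb3a1, Fabp1, Clca1, Muc5b and Agr2 by group mean.

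Scgb1a1, the most abundant secretoglobin of club cells, changed little with oxygen. In P5 mice with scrambled antimiR its level was 8.31, 8.19, 8.13 and 8.17 in 21% O2 and 8.35, 7.94, 7.99 and 7.84 in 85% O2. The groups overlapped, and the difference of -0.17 (95% interval -0.41 to 0.07) did not pass the test (adjusted p = 0.241, limma). At P14 the 4 mice in 21% O2 had 8.58, 8.62, 8.53 and 8.72, and the 4 in 85% O2 had 8.83, 8.90, 9.19 and 9.26. Here every hyperoxic mouse was above every normoxic one, and Scgb1a1 rose by 0.43 on the log2 scale (1.35-fold, adjusted p = 0.00459, limma), or by 0.21 under quantile normalization (adjusted p = 0.0142). With antimiR-34a the P14 levels were 8.44, 8.88, 8.80 and 8.83 in 21% O2 and 8.88, 8.87, 8.82 and 9.03 in 85% O2. These overlapped, with a difference of 0.16 (interval -0.08 to 0.41, adjusted p = 0.219, limma).

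Cyp2f2, a club cell cytochrome P450 that activates naphthalene, did not pass the test for oxygen at either age or with either antimiR. With scrambled antimiR at P14 it was 6.77, 6.72, 6.73 and 6.54 in 21% O2 and 6.66, 6.63, 6.86 and 6.63 in 85% O2. The groups overlapped and differed by 0.01, or by -0.24 under quantile normalization (interval of the first value -0.29 to 0.30, adjusted p = 0.967, limma).

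Scgb3a2, a secretoglobin found on club cells and a target of the transcription factor NKX2-1, stood between these and the mucous genes. At P14 with scrambled antimiR it was 0.36, 0.21, 0.29 and -0.23 in 21% O2 and -0.71, -0.74, -0.37 and -0.71 in 85% O2. It fell by 0.79 (1.73-fold, adjusted p = 0.0329, limma) with no overlap, but the call was lost in 6 of the 8 fits that left out 1 mouse. At P5 with scrambled antimiR the difference was -0.65 (interval -1.31 to 0.01, adjusted p = 0.102).

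Scgb3a1, a secretoglobin of larger airways, moved far more than its relatives. Its level in P5 mice with scrambled antimiR was 5.12, 2.25, 0.25 and 4.87 in 21% O2 and -1.52, 0.02, -0.52 and -1.25 in 85% O2. The normoxic group was wide, with mice 1 and 4 highest, yet it did not overlap with the hyperoxic one. At P14 the same groups had 4.91, 4.61, 4.79 and 4.60 in 21% O2, and -1.29, -1.84, 1.06 and 0.01 in 85% O2. Here the normoxic mice lay close together and far above all hyperoxic mice. Scgb3a1 fell by 3.94 on the log2 scale at P5 (SE 0.96, 15.4-fold, adjusted p = 0.00452, limma) and fell by 5.24 at P14 (37.9-fold, adjusted p = 0.00046, limma).

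Muc5b, the gel-forming mucin of mucociliary clearance, ranked the normoxic P5 mice as Scgb3a1 did. At P5 with scrambled antimiR it was 2.67, -0.30, -1.84 and 2.36 in 21% O2 and -3.25, -2.34, -2.43 and -2.60 in 85% O2. At P14 it was 3.51, 3.56, 3.45 and 3.29 in 21% O2 and -2.07, -1.72, -0.19 and -1.05 in 85% O2. Oxygen groups did not overlap at either age. Muc5b fell by 3.38 at P5 (SE 0.79, 10.4-fold, adjusted p = 0.00338, limma) and fell by 4.71 at P14 (26.2-fold, adjusted p = 5.57e-05, limma).

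Agr2 encodes a protein disulphide isomerase of the endoplasmic reticulum that mucin folding needs. With scrambled antimiR it was -0.14, -2.01, -2.71 and -0.46 at P5 in 21% O2 and -3.02, -2.95, -3.26 and -3.14 in 85% O2. The highest normoxic mice were again 1 and 4, and mouse 3 came close to the hyperoxic range. At P14 it was -0.58, -0.65, 0.02 and -0.59 in 21% O2 and -2.64, -2.91, -1.97 and -2.80 in 85% O2, also without overlap. Agr2 fell by 1.77 at P5 (3.40-fold, adjusted p = 0.00358, limma) and fell by 2.13 at P14 (4.38-fold, adjusted p = 0.000889, limma).

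Clca1, a secreted protein of mucous granules that shapes the mucus network, was low at P5 and high at P14 in room air. With scrambled antimiR at P5 it was -2.81, -5.62, -5.94 and -3.58 in 21% O2, and was not well above background in any mouse in 85% O2, where it was therefore at least 8.31-fold lower (adjusted p = 0.00108, limma). Since the probe entered the fit of P5 mice only through this normoxic group, where it is high, that p is no support for the fall. The size near background depended on its correction, since normexp gave a log2 change of -0.81 (adjusted p = 0.017). At P14 it was 4.34, 4.95, 4.81 and 3.84 in 21% O2 and -4.87, -6.21, -1.84 and -4.98 in 85% O2, where 3 of 4 mice were above background. As a description, since this fall chose the gene, the P14 group means differed by -8.96, or 498-fold, and by -7.35 under normexp.

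Fabp1, a fatty acid carrier best known from liver and intestine, was detected in every mouse in 21% O2 and in few in 85% O2. At P14 it was 0.14, 0.25, 0.22 and 0.22 in 21% O2 with scrambled antimiR, and in 85% O2 no mouse was well above background, so that the hyperoxic group was at least 276-fold lower (a description, since this fall chose the gene, with a log2 change of -3.94 under normexp). At P5 the same comparison did not choose it. There it was -3.81, -3.40, -3.85 and -3.76 in 21% O2, and again in no mouse in 85% O2 above background, hence at least 11.7-fold lower. The fit gave it an adjusted p of 0.0389 (limma), which is no support either, since the probe entered the fit only through mice in 21% O2. The log2 change was -1.04 under normexp background correction (adjusted p = 0.263), and the call was lost in 7 of 8 fits without 1 mouse, all of which shared their estimate of the spread with the group described next. In P5 mice with antimiR-34a in 85% O2, Fabp1 was -7.62, -7.58, 0.93 and -4.48, and the last 2 mice, 3 and 4, are those with the high liver list levels. All 9 liver markers were well above background in both, as in every P14 mouse in 21% O2. With scrambled antimiR they were so too in mouse 3 of P5 in 21% O2 and in mouse 1 of P5 in 85% O2. Fabp1 was not above background in the latter. In the other P5 mice in 21% O2, all with Fabp1 above background, 6 to 8 of the 9 markers were. The log2 change of Fabp1 with antimiR-34a at P5 was -1.23 with all mice (adjusted p = 0.47, limma). Among P5 mice in 85% O2 with antimiR-34a, only mice 3 and 4 had Fabp1 above background. Without them it was at least 4.86-fold lower in 85% O2, a value that the choice of mice sets. The part of liver RNA in these levels was not tested. In the P14 mice in 21% O2 the liver list ranged from 0.13 to 1.79 while Fabp1 stayed between 0.10 and 0.26.

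Counted together, 5 of the 8 genes passed the test in 85% against 21% O2 at P5 with scrambled antimiR, all lower. Of all 35981 probes tested in that comparison 43.9% were called in either direction and 26.5% lower. Scgb3a1, Muc5b and Agr2 were above background in every P5 mouse. Fabp1 and Clca1 were not, and their calls are no support for a fall, for the reason given above. With only probes above background on every P5 array, 3 of 6 genes were called, beside 14631 of 31505 probes. By the methods' t-test, which estimates the spread gene by gene, Fabp1 alone of the 8 was called, beside 10736 of all 35981 probes. That call has the same limit. The adjusted p of this test was 0.0908 for Scgb3a1, 0.111 for Muc5b and 0.131 for Agr2. At P14 with scrambled antimiR, 5 of the 6 genes given a test were called, Scgb1a1 higher and Scgb3a1, Scgb3a2, Muc5b and Agr2 lower, beside 60.9% of 38452 probes in either direction and 32.7% lower. The median log2 change over all tested probes was -0.07 at both ages, and 0.10 at P14 under normexp background correction. The counts are to be read against these shares.

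**Figure D2:**
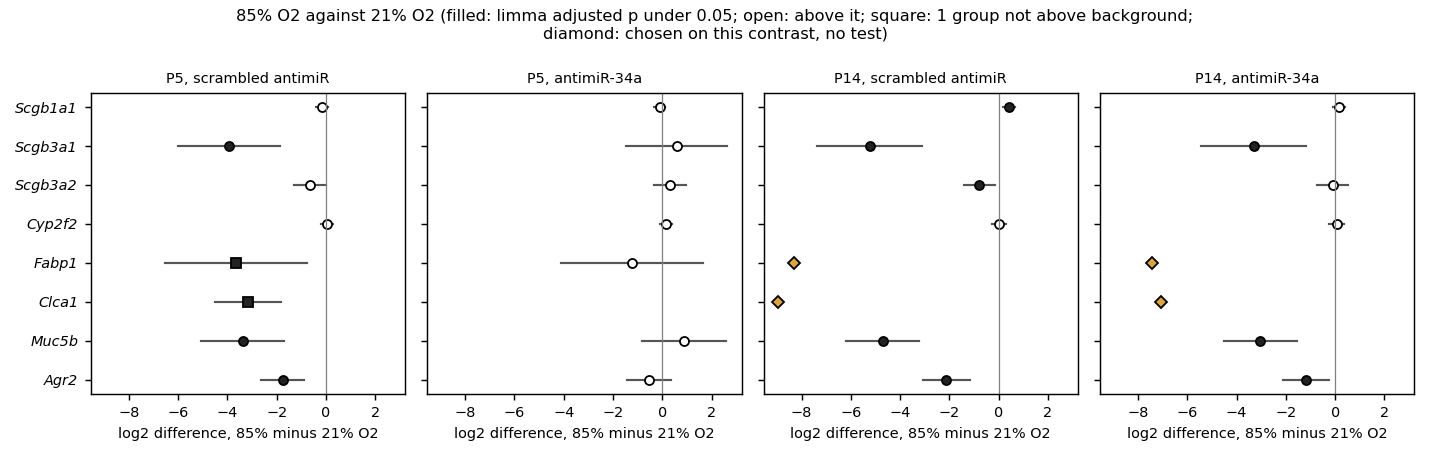
Log2 fold change of each gene in 85% O2 against 21% O2 (horizontal axis) at P5 and P14 with either antimiR, from means of 4 mice a group, with 95% intervals where a test was given. Points without an interval are the P14 changes of Fabp1 and Clca1, which chose these genes, squares have 1 group with no mouse above background, so that their place depends on background values, and Clca1 at P5 with antimiR-34a is left out because neither group had one. At P14 Scgb1a1, Cyp2f2 and Scgb3a2 lie closest to 0, and the other genes lie below it.

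Except for Fabp1, the P5 falls leaned on the wide normoxic group. Without its mice 1 and 4, those with high ciliated list levels, 3 of the 8 genes were called, beside 33.8% of all probes. Muc5b fell by 1.59 (adjusted p = 0.0404, limma) and Agr2 fell by 0.73 (adjusted p = 0.0127). Clca1 was at least 3.40-fold lower (adjusted p = 0.0141, with the limit given above). Fabp1 lost its call (adjusted p = 0.122, limma) but was at least 12.4-fold lower, beside at least 11.7-fold with all mice. Scgb3a1 then differed by -2.07 (adjusted p = 0.0849) and Scgb3a2 by -0.01 (adjusted p = 0.981). Other club cell genes stood higher in mice 1 and 4 too. Scgb3a2 was 0.50 and 0.20 in them against -0.83 and -1.03 in mice 2 and 3, Cyp2f2 was 6.62 and 6.64 against 6.19 and 6.18, and the list of 23 further club cell genes was 0.44 and 0.40 against -0.36 and -0.78. Scgb1a1 lay close in all, at 8.31 and 8.17 against 8.19 and 8.13, and so did Fabp1, at -3.81 and -3.76 against -3.40 and -3.85. The part of a larger share of airway in these levels was not tested.

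At P14 the ciliated list did not differ in that way, ranging from -0.25 to 0.04 over the 8 normoxic mice and from -0.27 to 0.82 over the 8 hyperoxic mice. Of its 15 genes, 2 rose and 2 fell with scrambled antimiR, and 7 rose and 1 fell with antimiR-34a (beside 60.9% and 65.5% of all probes called in either direction). Some lists of other cells and tissues were higher in normoxic mice at P14 and others were not. The basal cell list lay between -0.56 and -0.03 in 85% O2, below every mouse in 21% O2, where it reached 0.40. The skeletal muscle list was 0.17 to 1.77 against -1.13 to -0.02 and the liver list 0.13 to 1.79 against -0.52 to 0.19, with an overlap. Cartilage, a marker of large airways, was -0.13 to 0.60 against -0.65 to -0.28. The type II pneumocyte list was 0.15 to 0.28 against -0.35 to -0.015 without overlap, and 8 of its 10 genes fell with either antimiR, while 1 rose with scrambled antimiR. The intestine list (-0.32 to 0.087 against -0.21 to 0.046) and the oesophagus list (-0.28 to 0.097 against -1.03 to 0.76) overlapped, as did the neuroendocrine list (-0.34 to 0.029 against -0.081 to 0.27). Their part in the fall of the mucous genes was not tested. The list of genes shared by all lung epithelia went the other way, 9 of 12 (75%) called higher and none lower in 85% O2 at P14 with scrambled antimiR, beside the 60.9% of all probes called in either direction.

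**Figure D3:**
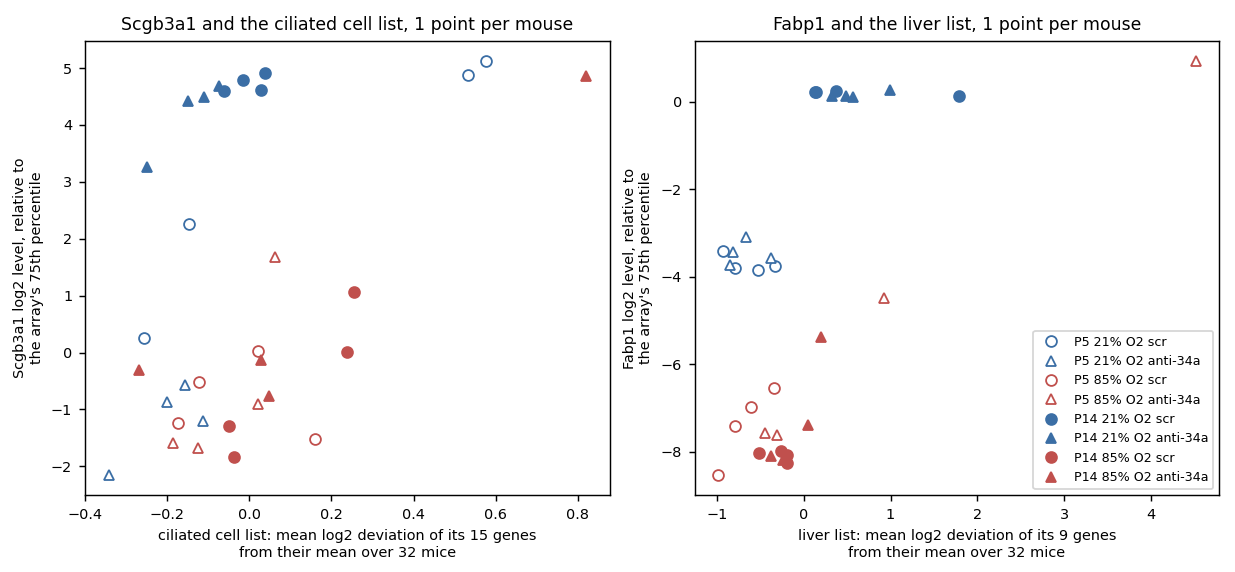
Level of the ciliated and liver marker lists in every mouse (mean log2 deviation from the mean of the 32 mice, horizontal axis). The vertical axis is the log2 level of Scgb3a1 in the ciliated panel and of Fabp1 in the liver panel, for the same mice. Mice 1 and 4 of P5 in 21% O2 with scrambled antimiR stand out for ciliated genes at 0.58 and 0.53, mouse 3 of P5 in 85% O2 with antimiR-34a for liver genes at 4.51, and mouse 4 of P14 in 85% O2 with antimiR-34a for ciliated genes at 0.82.

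In mice given antimiR-34a, none of the 8 genes passed the test for oxygen at P5, beside 46.6% of all probes (at an unadjusted p under 0.05 the count was also 0, beside 53.7%). The normoxic mice of that arm were already low. Scgb3a1 was -2.15, -0.87, -0.58 and -1.20 in 21% O2 and -1.59, -1.69, -0.91 and 1.68 in 85% O2. Muc5b was -3.43, -3.39, -3.19 and -3.12 in 21% O2 and -2.96, -3.18, -2.55 and -0.96 in 85% O2. The intervals of the differences were -1.49 to 2.63 for Scgb3a1 and -0.82 to 2.56 for Muc5b, which do not exclude a moderate change in either direction. Clca1 was not well above background in any of the 8 mice.

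At P14 with antimiR-34a, 3 of the 6 genes given a test fell, beside 65.5% of all probes called in either direction and 37.9% lower. Scgb3a1 was 4.50, 4.42, 3.25 and 4.68 in 21% O2 and -0.77, -0.31, -0.12 and 4.86 in 85% O2. Muc5b was 3.56, 2.93, 2.14 and 3.32 in 21% O2 and -1.03, -1.004, -0.86 and 2.68 in 85% O2. Hyperoxic mouse 4 lay above every normoxic mouse for Scgb3a1 and among them for Muc5b, and the other 3 lay far below. Scgb3a1 fell by 3.30 (adjusted p = 0.00965, limma), Muc5b fell by 3.04 (adjusted p = 0.00153) and Agr2 fell by 1.18 (adjusted p = 0.0291). Agr2 lost its call in 5 of 8 fits without 1 mouse. Over the settings other than leaving out 1 mouse, 18238 to 26998 of all 38452 probes were called. Under 1 of these, the methods' t-test, all 3 genes lost their calls (adjusted p = 0.0646 for Muc5b, 0.123 for Scgb3a1 and 0.166 for Agr2). Without mouse 4 the log2 changes were -4.62, -3.95 and -1.68, and Scgb3a2 fell by 0.48 (adjusted p = 0.0441). Clca1 in that mouse was 2.62, against -4.19, -6.18 and -5.11 in the other 3, and the difference from 21% O2 was -7.08 with it and -9.02 without it (a description). Fabp1 was -8.10, -7.38, -8.18 and -5.37 in 85% O2 and was above background only in mouse 4, while all 4 mice in 21% O2 lay between 0.10 and 0.26.

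The question of whether neutralising miR-34a altered these genes was asked within each slide. At P5 in 21% O2 none of the 8 genes was called, beside 0.136% of all probes (49), although 5 had an unadjusted p under 0.05, beside 17.6% of all probes. For Scgb3a1, Muc5b, Scgb3a2 and Clca1 the levels did not overlap between antimiRs. How many of all probes did the same was not counted. Scgb3a1 was at 0.25 or above with scrambled antimiR and at -0.58 or below with antimiR-34a, a difference of -4.32 (adjusted p = 0.083, limma). Muc5b differed by -4.01 (16.1-fold, adjusted p = 0.0581) and Scgb3a2 by -0.93 (adjusted p = 0.174). Clca1 was above background in all 4 mice with scrambled antimiR and in none with antimiR-34a, at least 6.82-fold lower (adjusted p = 0.0544, no support here either, since the scrambled group alone brought the probe into the fit). The calls depended on the processing. Normexp called Scgb3a1 (adjusted p = 0.0416) and Muc5b (0.0397) but not Clca1 (a log2 change of -0.67, adjusted p = 0.114), array weights called Scgb3a1 (0.0374), Muc5b (0.0271) and Clca1 (0.0219), and quantile normalization called Clca1 alone (0.0483), where the same limit holds for Clca1. These differences also rest on mice 1 and 4 of the scrambled group. Without them they were -2.45 for Scgb3a1 (adjusted p = 0.494), -2.21 for Muc5b (adjusted p = 0.364) and -0.29 for Scgb3a2 (adjusted p = 0.737), and Clca1 was at least 2.79-fold lower (adjusted p = 0.364). Without mouse 3 of that group, which was the lowest for each of these, 3 genes were called (Scgb3a1, Muc5b and Clca1, the last with the limit above), beside 83 of all 35981 probes.

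In the other 3 antimiR comparisons none of the 8 genes passed the test, and none had an unadjusted p under 0.05. All probes were called at 0.0639% (23) at P5 in 85% O2, 0% at P14 in 21% O2 (0 by limma and 4032 at an unadjusted p under 0.05, but 1498 by limma without scrambled antimiR mouse 4 and 5946 without that mouse and antimiR-34a mouse 1, the arrays whose brightness stood apart from their groups, with none of the 8 genes called in either case) and 2.67% (1025) at P14 in 85% O2. At P14 in 21% O2 the interval for Scgb1a1 was -0.11 to 0.37 and for Muc5b -1.95 to 1.02. At P14 in 85% O2 the interval for Scgb3a1 was -0.71 to 3.56, which does not exclude a large rise. Scgb1a1, whose probe holds the complement of the miR-34a seed, differed by 0.16, 0.21, 0.13 and -0.14 between antimiRs at P5 in 21% and 85% O2 and at P14 in 21% and 85% O2, none of them past the test (adjusted p = 0.467, 0.44, 0.726 and 0.588, limma).

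The difference of the oxygen effect between antimiRs was tested as an interaction. At P5 it was 4.52 for Scgb3a1 (adjusted p = 0.267, limma) and 4.25 for Muc5b (adjusted p = 0.225). Without mice 1 and 4 of P5 in 21% O2 these were 2.64 (adjusted p = 0.637) and 2.46 (adjusted p = 0.494). No size is given for Clca1, which was above background in 1 of the 4 groups. None of the 8 genes passed, beside 0.0556% of all probes called. At an unadjusted p under 0.05 there were 4, beside 10.8% of all probes. Clca1 is 1 of these 4 and is no support, since only the scrambled group in 21% O2 brought its probe into the fit. At P14 none of 6 passed, beside 0.0884% of all probes, and none had an unadjusted p under 0.05, beside 15%. The oxygen effects with either antimiR were therefore not shown to differ.

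**Figure D4:**
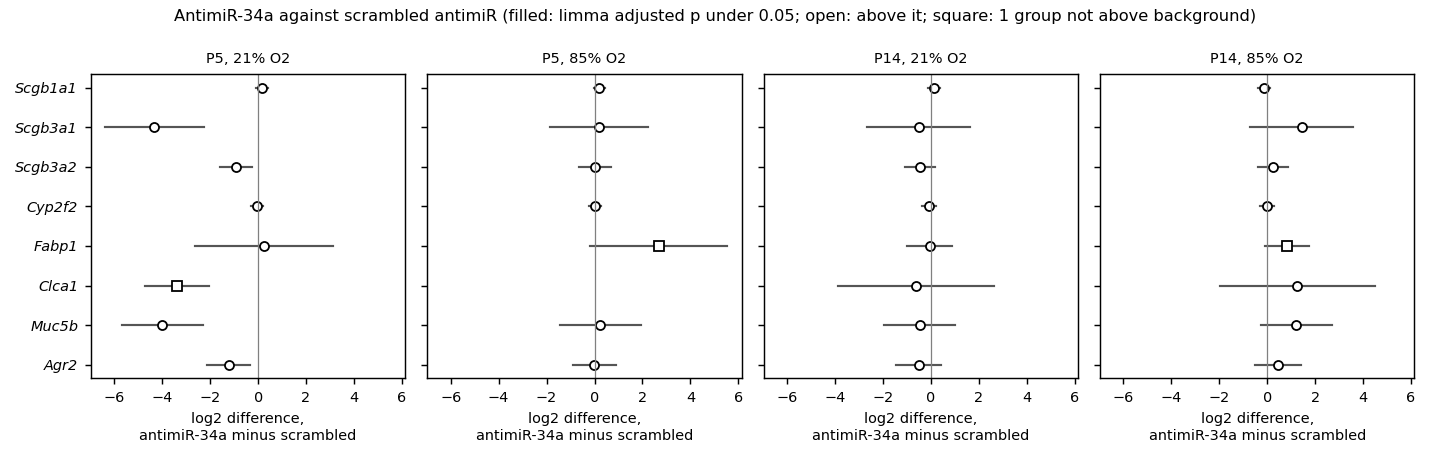
Log2 fold change of each gene with antimiR-34a against scrambled antimiR (horizontal axis) at P5 and P14 in 21% and 85% O2, from means of 4 mice a group, with 95% intervals. Squares have 1 group with no mouse above background, and Clca1 at P5 in 85% O2, with none in either, is left out. No change passed the test. The widest departures from 0 among circles are Scgb3a1 and Muc5b at P5 in 21% O2, at -4.32 and -4.01.

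Between P5 and P14 in 21% O2, Muc5b rose with either antimiR. With scrambled antimiR, 2 of 6 genes given a test were called, both higher, beside 51.4% of 39159 probes in either direction and 27.7% higher. Muc5b rose by 2.73 (adjusted p = 0.00471, limma), and by 4.52 without mice 1 and 4 of P5 (adjusted p = 4.65e-05), but lost its call under the methods' t-test (adjusted p = 0.145). Without those mice all 6 genes were called, and with array weights 5. Over the settings other than leaving out 1 mouse, 15753 to 23415 of all 39159 probes were called. Scgb1a1 rose by 0.41 (adjusted p = 0.00377, limma), but this sign depended on scaling: quantile normalization gave -0.22. With antimiR-34a, 5 of 6 genes were called higher, beside 58% in either direction and 29.7% higher. Muc5b rose by 6.27 (77.1-fold), Scgb3a1 by 5.41 (42.6-fold), Agr2 by 1.60 and Scgb3a2 by 0.93. Scgb1a1 rose by 0.38, and by quantile normalization it was at -0.04. As a description, Clca1 was 8.98 higher at P14 with scrambled antimiR and at least 2230-fold higher with antimiR-34a, and Fabp1 was 3.91 and 3.61 higher.

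The difference of the oxygen effect between ages was called for 1 of 6 genes with scrambled antimiR and for 2 of 6 with antimiR-34a, beside 40.8% and 42.9% of all probes. Scgb1a1 changed by 0.60 more at P14 than at P5 with scrambled antimiR (adjusted p = 0.00425, limma), or by 0.30 under quantile normalization (adjusted p = 0.0141). Scgb3a1 and Muc5b changed by -3.87 (adjusted p = 0.0321) and -3.91 (adjusted p = 0.0054) with antimiR-34a. The call for Scgb3a1 was lost in 7 of 16 fits without 1 mouse, and Scgb3a1 was at -2.86 without mice 3 and 4 of P5 in 85% O2 (adjusted p = 0.146). Both ages share no mice, but each slide is 1 age.

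Ordered by group mean, Scgb3a1 ran from 4.73 ± 0.15 (SD, n = 4) at P14 in 21% O2 with scrambled antimiR and 4.21 ± 0.65 with antimiR-34a, to 3.13 ± 2.31 at P5 in 21% O2 with scrambled antimiR. Then came 0.91 ± 2.65 at P14 in 85% O2 with antimiR-34a, -0.52 ± 1.31 at P14 in 85% O2 with scrambled antimiR, -0.63 ± 1.58 and -0.82 ± 0.70 at P5 in 85% O2 with antimiR-34a and scrambled antimiR, and -1.20 ± 0.68 at P5 in 21% O2 with antimiR-34a. Each neighbouring pair in this order overlapped. The first 3 groups, all in 21% O2, and the last 5 formed the same high and low sets for Muc5b and Agr2. For Scgb1a1 all 4 P14 groups lay above all 4 P5 groups by mean at this scaling, though age cannot be told apart from slide and the sign of the age difference in 21% O2 turned under quantile normalization (-0.22 with scrambled antimiR and -0.041 with antimiR-34a). The means ran from 9.04 ± 0.21 at P14 in 85% O2 with scrambled antimiR to 8.03 ± 0.22 at P5 in 85% O2 with scrambled antimiR.

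Mice of the same group varied together in these genes. After the group mean was taken out, Scgb3a1 and Muc5b correlated over 32 mice at Pearson r = 0.962 and Spearman rho = 0.916 (permutation p = 1e-05 for both, the smallest that 100000 shuffles can give, adjusted over 28 pairs to 0.00028). Without the 2 mice farthest from the median r was 0.937, and without the groups P5 in 21% O2 with scrambled antimiR and P14 in 85% O2 with antimiR-34a it was 0.914 over 24 mice. In all, 18 of 28 pairs had an adjusted permutation p under 0.05, all with r above 0. Several pairs leaned on those 2 groups. Muc5b and Agr2 had r = 0.858 over 32 mice and 0.478 over 24, and Scgb3a1 and Cyp2f2 0.774 and 0.327. Cyp2f2, which did not pass the test for oxygen, followed Scgb3a2 (r = 0.867 over 32 mice, 0.608 over 24). Scgb1a1 passed only with Cyp2f2 (r = 0.413) and Fabp1 (r = 0.519, or 0.336 without the 2 farthest mice). Fabp1 went with the other 6 genes at r = 0.025 to 0.349. Clca1 and Fabp1 were above background in no mouse of some groups, so that part of their deviations rests on background values. The ciliated list stood highest in the same mice as the mucous genes did, mice 1 and 4 of P5 in 21% O2 with scrambled antimiR and mouse 4 of P14 in 85% O2 with antimiR-34a, and its part in these correlations was not tested.

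**Figure D5:**
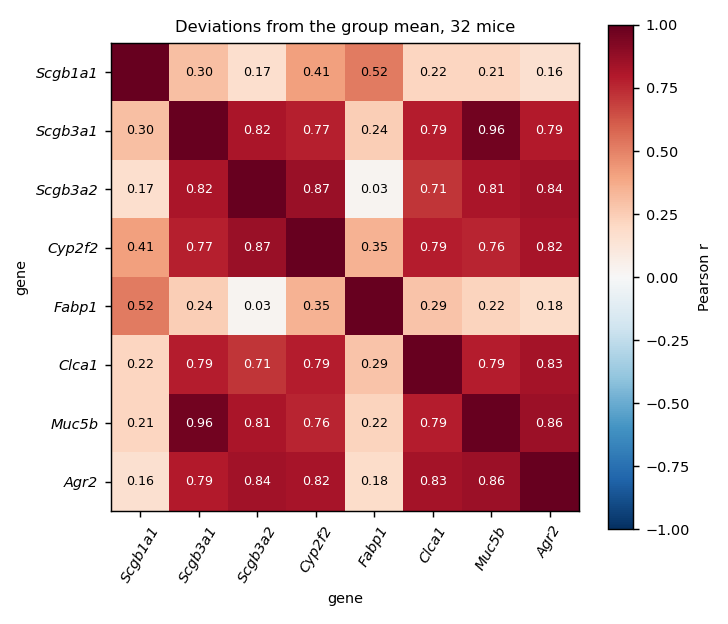
Pearson r between the 8 genes over 32 mice after the mean of each group of 4 was removed (colour and printed value, both axes are genes). The block of Scgb3a1, Scgb3a2, Cyp2f2, Clca1, Muc5b and Agr2 is high, led by 0.962 for Scgb3a1 with Muc5b, and Scgb1a1 and Fabp1 stand outside it. Values of Clca1 and Fabp1 include arrays on which the probe was not well above background.

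Other genes of airway secretory cells went both ways in oxygen. Of 23 further club cell and airway secretion genes tested, 9 rose and 6 fell at P5 with scrambled antimiR, and 11 rose and 6 fell at P14, with list medians of 0.12 and 0.27 against -0.07 for all probes. These and the counts of the lists that follow are to be read beside the 43.9% of all probes called at P5 and the 60.9% at P14. Without mice 1 and 4 of P5 in 21% O2, 10 rose and none fell at P5, beside 33.8% of all probes. The 4 largest changes with no overlap at P14 were falls of secreted proteins of mucosal defence (log2 changes of -5.86 for Bpifa1, -4.91 for its relative Bpifb1, -4.71 for the antibacterial lectin Reg3g and -2.88 for the mucus-associated trefoil factor Tff2). At P5 Bpifa1 also led, at -4.52 (-2.51 without those mice, adjusted p = 0.0564), while Gsta3, a glutathione transferase of detoxification, was up at 1.73 and the stress-induced Nupr1 at 1.66. With antimiR-34a the club list had 10 higher and 0 lower at P5, and 11 and 4 at P14. These are shares of 43.5% and 65.2%, beside 46.6% and 65.5% of all probes in that arm.

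Of the other goblet cell genes, 1 rose and 4 fell of 12 tested at P5 with scrambled antimiR, and 2 rose and 4 fell of 15 at P14, with medians of -0.33 and -0.04. Without mice 1 and 4 of P5 in 21% O2, 3 rose and 1 fell at P5. Muc5ac, the mucin induced by allergy and irritation, fell by 0.92 at P5 (-0.65 without those mice, adjusted p = 0.0438) and fell by 2.28 at P14. The lectin Itln1 fell by 3.45 and the trefoil factor Tff1, above background in no hyperoxic mouse of that comparison, was at least 10.6-fold lower at P14, so that its place among the 4 is no support for a fall. With antimiR-34a 4 rose and 2 fell at P5, and 4 rose and 4 fell at P14, or 50% and 53.3%, beside 46.6% and 65.5% of all probes.

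Signals that induce mucous genes were read from 15 genes of type 2 immunity tested at P14, of which 3 rose and 6 fell with scrambled antimiR (3 of 13 rose and 2 fell at P5), with medians of -0.22 and 0.16. The chitinase-like genes Chil4 and Chil3, made by mouse epithelium and macrophages in type 2 responses, had log2 changes of -4.31 and -2.42. The lipoxygenase Alox15 was at least 23.3-fold lower and the cytokine Il4 at least 7.65-fold lower, both above background in no hyperoxic mouse of that comparison, so that the same limit holds for these 2 of the 6. Among 20 transcription factors and Notch genes that set airway cell fate, 5 rose and 5 fell at P14 and 5 rose and 2 fell at P5, with medians of -0.07 and 0.09. The Notch target Hey1 fell by 1.67 and the progenitor factor Sox9 rose by 1.68 at P14, and the forkhead factor Foxa2 rose by 0.67 at P5.

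Fabp1 is also a target of PPARα, the receptor that switches on lipid oxidation. Of 18 genes of that list 6 rose and none fell at P5 with scrambled antimiR, and 4 rose and 4 fell at P14, shares of 33.3% and 44.4% that lie below those of all probes. The list medians were 0.11 and -0.02. Within its family at P14 with scrambled antimiR, Fabp4, the carrier of adipocytes, macrophages and capillary endothelium, fell by 3.52 and Fabp3, that of muscle, fell by 0.96, both with no overlap, and the other 5 tested were not called. Of the CLCA family 2 genes were tested besides Clca1, and Clca3a2 rose by 3.60 at P14 while Clca3a1 was at -0.30 (adjusted p = 0.0993, limma). The secretoglobins Scgb2b20, Scgb2b2 and Scgb1c1 had log2 changes of -1.30, -1.19 and -1.10 at P14, and near-identical members of that family can share probes.

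No gene of these lists was called for antimiR, except among the cell fate genes at P14 in 85% O2, where 2 rose and 1 fell of 20 (15%, beside 2.67% of all probes).

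The genes whose pattern over the 8 group means was most like a member's, of 15978 compared, are given as a description. For Muc5b they were Bpifb1 (r = 0.9969), Bpifa1 (r = 0.9913) and Itln1 (r = 0.991), and for Scgb3a1 Itln1 (r = 0.9866), Bpifa1 (r = 0.9847) and Cyp2b13 (r = 0.9827). Fabp1 was most like Rtp3 (r = 0.9942), Vtn (r = 0.9931) and Rspo3 (r = 0.9905), of which Vtn is a liver plasma protein. Clca1 was most like Cilp (r = 0.9947), Ccl19 (r = 0.9941) and Cript (r = 0.9933), and Agr2 like Pcyox1 (r = 0.9892), Asb2 (r = 0.9826) and Wfdc12 (r = 0.9819). For Scgb1a1 the nearest were Zbtb20 (r = 0.9917), Actb (r = 0.9856) and Rps14 (r = 0.9845), and for Scgb3a2 Tmc5 (r = 0.9815), Hpse (r = 0.9772) and Ppapdc3 (r = 0.972). With 8 points and this many genes, high values arise easily.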

How the data were processed

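Whole-lung RNA of 32 mice was hybridised to one-colour Agilent arrays, 4 mice in each of 8 groups, with groups taken from the sample labels. Per the file headers, the deposited spot intensities came from Agilent Feature Extraction 10.7.3.1 with an mm9 annotation, background-subtracted and not normalized between arrays. The authors' series table holds log2 values that were quantile-normalized, and correlated at 0.9974 to 0.9999 with the log2 intensities. It served as an alternative.

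The log2 processed signal minus the array's 75th percentile was used. Outlier spots (0.211%) were left out and repeated spots averaged. A probe was tested where some group had it well above background in all of its mice, which left 35981 probes at P5, 38452 at P14 and 39159 over both ages. Comparisons used limma 3.58.1 in R 4.3.3 with 1 mean per group and Benjamini-Hochberg adjustment at 0.05. The methods' t-test (Welch) was run as an alternative. Where no array of a group was above background, the bound raised its values to the faintest probe well above background. Data with known changes were simulated for 85% against 21% O2 at P5 with scrambled antimiR over 35981 probes, where 82 of 100 changes of 1 on the log2 scale and 99 of 100 of 2 were recovered. Correlations used 100000 shuffles within groups.

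Members, gene lists and tests were chosen with earlier results of these data known. Named genes are all members on their single probe, from other lists at most 4 called genes with the largest change and no overlap between groups, and the 3 genes most like each member (not reported here for Cyp2f2). Genes named beside these for their role (members of the CLCA family that were tested) were chosen after their values were seen. Nothing states how many litters gave the mice, so p-values measure the spread between these mice. The labels and the study's methods name different RNA extraction kits. The number of mice limits the precision. Other samples and assays of the study were not analysed here.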

Additional observations from a re-analysis of the deposited data

Results flagged for a closer look

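A sample far from the other 3 of its group was sought in each of 8 genes and 8 groups, and 7 of 64 were found, where chance flags about 1 in 20 groups. In P14 mice in 85% O2 with antimiR-34a, mouse 4 stood apart for Scgb3a1 (4.86) and Muc5b (2.68), and it was also the mouse with the highest ciliated list level, 0.82. In P14 mice in 85% O2 with scrambled antimiR, mouse 3 stood apart for Scgb3a2 (-0.37) and Cyp2f2 (6.86). Agr2 was highest in mouse 3 of P14 in 21% O2 with scrambled antimiR (0.016). Clca1 stood apart in mouse 3 of P5 with antimiR-34a in 21% O2 (-6.94) and in 85% O2 (-6.74), where it was not well above background in any of the 4 mice.

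The oxygen effect differed between ages by interaction tests for Scgb1a1 with scrambled antimiR (0.60) and for Scgb3a1 (-3.87) and Muc5b (-3.91) with antimiR-34a. Age and slide cannot be told apart in these.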

How the results depend on the processing

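Of the log2 fold changes of members under settings other than leaving out 1 mouse, 437 kept their direction and side of the threshold, 22 lost a call, 10 gained one, 21 turned and 2 moved. With 1 mouse left out the numbers were 381, 25, 7 and 11. The cause was not tested for any of these.

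Counts of called genes moved as follows. All-probe ranges given here are over the settings other than leaving out 1 mouse. For oxygen at P5 with scrambled antimiR (5), the count was 3 of 6 with probes above background on every array (beside 14631 of 31505 probes). It was 1 by the methods' t-test (beside 10736 of 35981) and 3 without scrambled antimiR mice 1 and 4 of P5 in 21% O2 (beside 12166). For oxygen at P5 with antimiR-34a (0), it was 1 with the compared groups alone (beside 15661) and 1 without mice 3 and 4 of P5 in 85% O2 (beside 15618). These 2 settings that leave out pairs of mice were chosen after seeing the data. For oxygen at P14 with antimiR-34a (3) the methods' t-test gave 0 (all probes 18238 to 26998). For antimiR at P5 in 21% O2 (0), normexp gave 2, quantile normalization 1, array weights 3 and the authors' values 1 (all probes 1 to 892). At P14 in 21% O2 (0) array weights gave 2, beside 9892 of all probes. For the age difference of the oxygen effect, the count with scrambled antimiR (1) was 2 without mice 1 and 4 (all probes 13261 to 18939). With antimiR-34a (2) it was 1 with the compared groups alone and 1 without both P14 arrays of odd brightness (all probes 12411 to 19807). For age in 21% O2 with scrambled antimiR (2), it was 1 by the methods' t-test, 5 with array weights and 6 without mice 1 and 4 (all probes 15753 to 23415). With 1 mouse left out the counts ranged from 0 to 1 for oxygen at P5 with antimiR-34a, 0 to 3 for antimiR at P5 in 21% O2, 1 to 2 for the age difference with antimiR-34a and 2 to 4 for age with scrambled antimiR.

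Signs turned mainly near 0. In oxygen at P5 with antimiR-34a, Fabp1 was 0.14 by normexp, Clca1 (above background in neither group) -0.023 by normexp, -0.0299 with array weights and -0.15 without mice 3 and 4, Scgb1a1 0.061 by quantile normalization and 0.061 with the authors' values, and Scgb3a1 -0.44 without mice 3 and 4. Cyp2f2 in oxygen at P14 with scrambled antimiR was -0.022 by normexp, -0.24 by quantile normalization, -0.042 with array weights, -0.24 with the authors' values and -0.043 without the arrays of odd brightness, and with antimiR-34a -0.046 by quantile normalization and -0.045 with the authors' values. For antimiR at P5 in 21% O2, Scgb1a1 was -0.11 under both of the last and Cyp2f2 0.16 without mice 1 and 4. Age in 21% O2 gave Scgb1a1 -0.22 by quantile normalization (adjusted p = 0.00636, limma) and -0.22 with the authors' values with scrambled antimiR, and -0.041 under both with antimiR-34a. With 1 mouse left out, Cyp2f2 ranged from -0.026 to 0.13 and from -0.049 to 0.034 for oxygen with scrambled antimiR at P5 and P14, from -0.11 to 0.16 for oxygen at P14 with antimiR-34a and from -0.13 to 0.019 for antimiR at P5 in 21% O2. Scgb3a1 ranged from -0.19 to 0.93 and Clca1 from -0.17 to 0.47 for oxygen at P5 with antimiR-34a, and Scgb3a2 from -0.48 to 0.19 at P14.

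Under normexp, which lifts low signals, the log2 change of Fabp1 with scrambled antimiR was -1.04 at P5 and did not pass the test (adjusted p = 0.263, limma). At P14 it was -3.94, a description. No mouse in 85% O2 had Fabp1 above background in either comparison. Correlated pairs numbered 17 of 28 under quantile normalization and 17 under normexp, against 18. Same-numbered mice correlated at -0.311 to 0.526 in 10 comparisons, none with every pair over 0.1, so replicate numbers do not pair mice. With the replicate number as a block, Fabp1 in oxygen at P5 with scrambled antimiR, whose size is only a bound, had an adjusted p of 0.0547, the only member call it changed.

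Counts over all probes moved by over 1.5 times for antimiR at P5 in 21% O2 (49, from 1 by the methods' t-test to 892 with array weights) and 85% O2 (23, from 0 to 4318), for P14 in 21% O2 (0, up to 9892 with array weights) and 85% O2 (1025, with 0 by the methods' t-test), and for the interactions of oxygen and antimiR at P5 (20, from 4 to 58) and P14 (34, from 0 to 6148). Each gene has 1 probe, so other probes could not be compared, and the methods' t-test has no form for the interactions.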
